A study of Mus musculus with 4 samples.

Results

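A set of 10 genes was followed across the cells of mouse mammary tumours: the receptors Tnfrsf4, Tnfrsf9, Tnfrsf18, Tnfrsf1b and Cd40, the ligands Tnfsf8, Tnfsf11 and Cd40lg, and the immunoglobulin-family receptors Icos and Cd28. They were taken by symbol from the mouse features of the count matrices, and all 10 were found among 31053 mouse genes. The tumours were HER2+ H605 mammary tumour cells grown for 14 days in the mammary pad of FVB/NJ mice given as 6 to 8 weeks old, either WT or Il1a-/-, so the deletion lay in the host, not in the injected cells. Each genotype had 2 tumours, collected as 2 WT and Il1a-/- pairs on separate days, and live-enriched cells were read by 10x single-cell RNA sequencing of 3' ends. H605 is a single transplanted line, and the labels name no cell-type restriction of the host deletion.

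A T cell needs a second signal beside its antigen receptor. Cd28 and its relative Icos bind B7-family ligands on antigen-presenting cells and signal through phosphoinositide 3-kinase. Receptors of the TNF superfamily (Tnfrsf4 is OX40, Tnfrsf9 is 4-1BB, Tnfrsf18 is GITR, Tnfrsf1b is TNF receptor 2) recruit TRAF adaptors to NF-kB, and they are known on activated T cells and on Foxp3+ regulatory T cells. The ligands run the other way: Cd40lg on helper T cells engages Cd40 on dendritic cells, macrophages and B cells, Tnfsf11 (RANKL) engages RANK on myeloid cells, and Tnfsf8 is the ligand of CD30.

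The promoter letters of genes with opposite patterns are shown here because Tnfrsf4 and Tnfrsf1b were high in Foxp3+ T cells and Tnfsf11 in Foxp3- CD4 T cells. RefSeq starts on GRCm38.p6 were matched for 6 of the 10 genes, not for Icos, Cd28, Cd40lg or Cd40. In 3 of the 7 windows no base of the 250 before the start fell inside the GENCODE gene, and these are printed 5′ to 3′ on the gene's strand. Capitals mark an NFAT-type core (TGGAAA), an AP-1 site (TGANTCA) or an NF-kB site (GGANTTTCC) on either strand.
Tnfrsf4, chr4:156013445-156013694, plus strand: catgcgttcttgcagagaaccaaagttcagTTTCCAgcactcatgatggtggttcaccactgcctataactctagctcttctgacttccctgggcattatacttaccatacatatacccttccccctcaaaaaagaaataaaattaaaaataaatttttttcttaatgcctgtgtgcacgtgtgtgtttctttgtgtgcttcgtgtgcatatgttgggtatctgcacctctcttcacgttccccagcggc
Tnfrsf1b, chr4:145246871-145247120, minus strand: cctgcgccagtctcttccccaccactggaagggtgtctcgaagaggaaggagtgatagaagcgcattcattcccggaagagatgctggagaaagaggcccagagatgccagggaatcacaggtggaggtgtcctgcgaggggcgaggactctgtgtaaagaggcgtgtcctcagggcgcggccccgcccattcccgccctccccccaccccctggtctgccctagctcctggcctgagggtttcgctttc
Tnfsf11, chr14:78308044-78308293, minus strand: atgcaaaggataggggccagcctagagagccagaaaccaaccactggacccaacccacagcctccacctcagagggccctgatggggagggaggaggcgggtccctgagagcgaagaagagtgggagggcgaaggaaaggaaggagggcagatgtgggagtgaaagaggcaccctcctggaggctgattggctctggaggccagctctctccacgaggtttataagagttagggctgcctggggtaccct
The NFAT-type core stood once before Tnfrsf4 and once before the upstream start of Tnfrsf9, and in none of the other windows. Of 32851 windows of the same length, 18.6% held that core, 6.75% the AP-1 site and 1.07% the NF-kB site. Among the members' windows the AP-1 site was found once, before the downstream start of Tnfrsf9, and the NF-kB site was not found. Tnfrsf4 and Tnfrsf18 lie 9.55 kb apart on chromosome 4 in the GENCODE annotation, and Icos and Cd28 lie 205 kb apart on chromosome 1 with Ctla4 between them. Tnfrsf9, Tnfrsf18 and Icos overlap other annotated genes (Camta1, Gm16008 and Gm37039), and the strand setting of the counting was not given in the sources used here.

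After calling, the libraries held 3864 and 3844 WT cells and 3130 and 3223 Il1a-/- cells. Median depth was 3099.5 and 4204.5 UMIs a cell in WT, 1348 in Il1a-/- replicate 1 and 2896 in replicate 2, so the first Il1a-/- library was the shallowest. Il1a gave 65 and 109 UMIs in WT cells and 1 and 0 in Il1a-/- cells, though which part of the gene is deleted was not given in the sources used here. Pairs of libraries shared 0 to 5 cell barcodes against 1.49 to 2.19 for independent barcodes. Between 2272 and 2474 cells a library fell in clusters with T or NK cell markers, which were gated on each cell's UMIs of Cd3, Cd4, Cd8, Foxp3, Trdc and NK genes.
The CD8 T gate took 6.12% and 10.6% of these cells in WT and 34.1% and 33.4% in Il1a-/- tumours (exact permutation test, two-sided p = 0.333, the smallest that 2 against 2 allows). The Foxp3+ T gate held 198 and 203 WT cells but 30 and 71 Il1a-/- cells, so its Il1a-/- values rest on few cells. Levels below are UMIs of a gene per 1000000 UMIs of the gate's cells (CPM); a lower level can mean fewer expressing cells or less RNA in each.

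The 10 genes divided by cell type. Of the 10 gates with at least 20 cells in every library, Foxp3+ T cells had the highest mean level of 6 (Tnfrsf4, Tnfrsf9, Tnfrsf18, Tnfrsf1b, Icos, Cd28). Foxp3- CD4 T cells had the highest of 3, all ligands (Tnfsf8, Tnfsf11, Cd40lg). Cd40 had its highest mean in conventional dendritic-like cells, at 82.5 CPM, overlapping phagocyte-like cells at 67.9. T and NK-like clusters held 98.1% of all Icos UMIs, 96.3% of Cd28 and 98.2% of Cd40lg, while phagocyte-like and conventional dendritic-like clusters held 67.8% and 20.7% of Cd40.

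**Figure D1:**
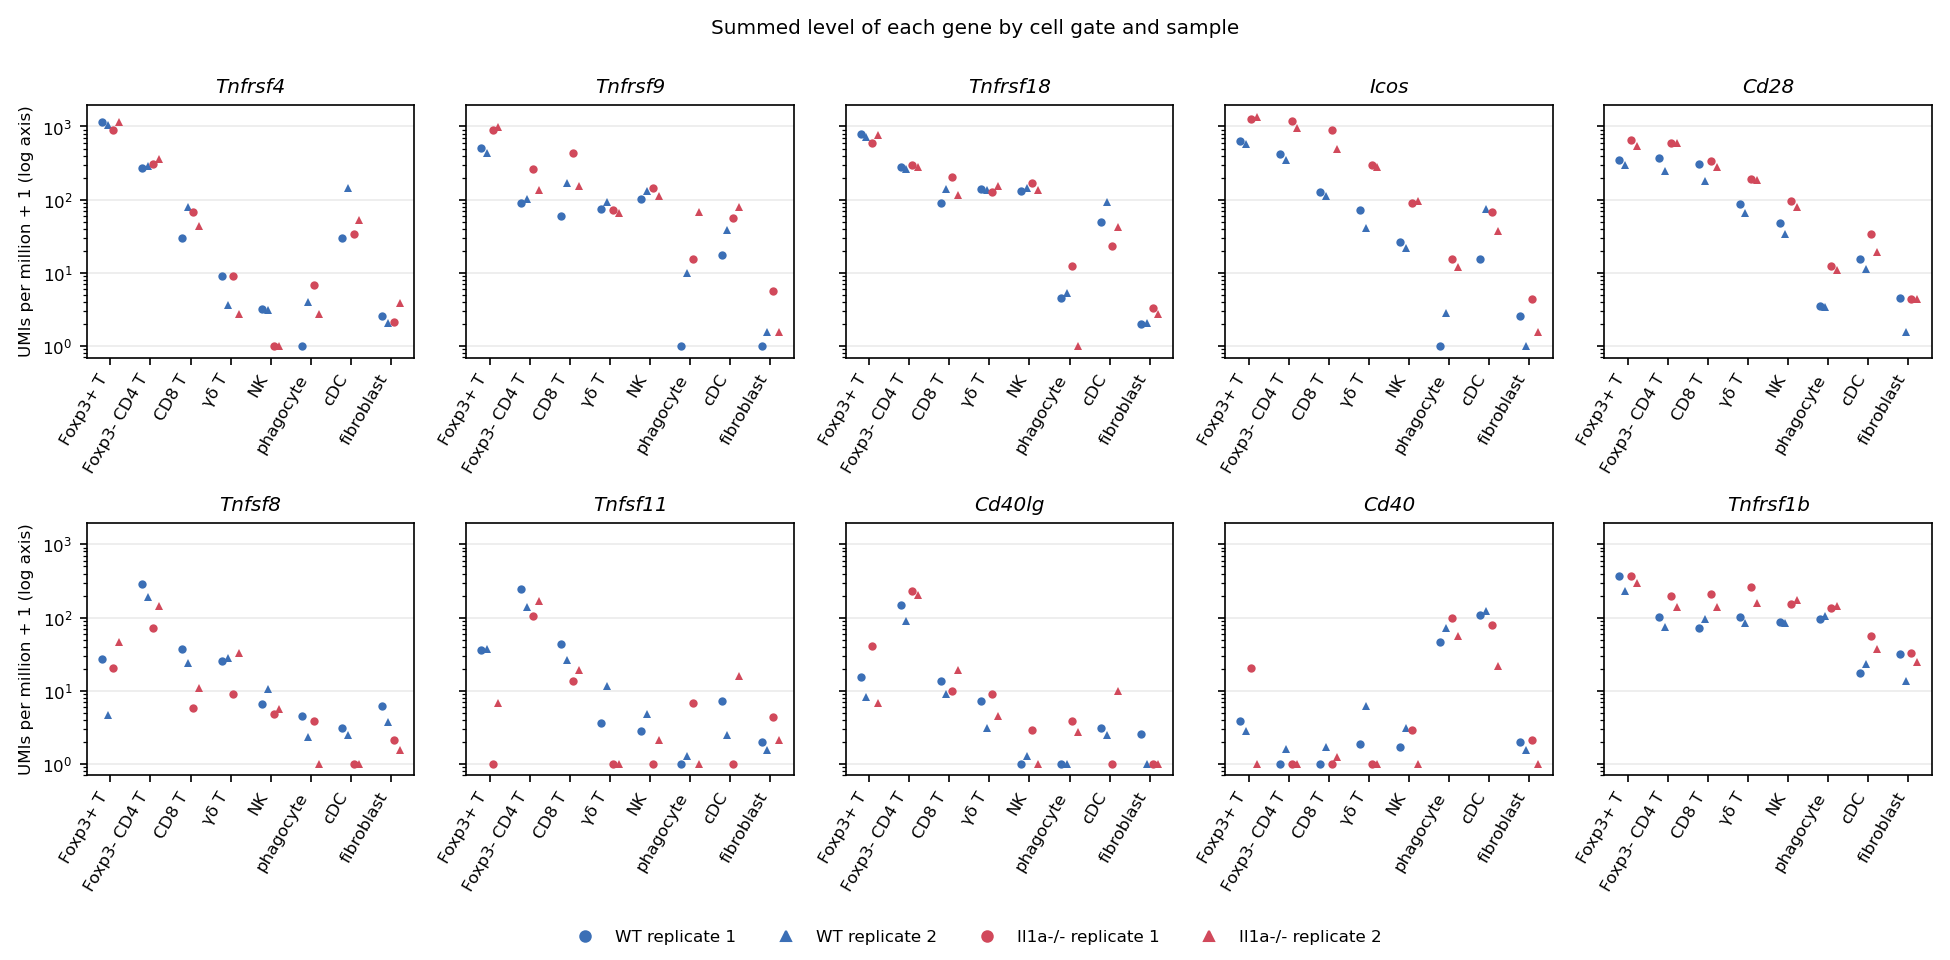
Each panel plots 1 gene; the y axis is its CPM plus 1 on a log axis, the x axis the cell gate (cDC, conventional dendritic-like), and each point is 1 library, with colour for host and shape for replicate. Tnfrsf4 lies between 887 and 1166 in Foxp3+ T cells against 267 to 357 in Foxp3- CD4 T cells, and Icos points of the 2 hosts separate in all 5 lymphocyte gates.

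Foxp3+ T cells carried the TNF receptors and Foxp3- CD4 T cells the ligands. Tnfrsf4, a survival receptor of activated T cells, was at 1166 and 1048 CPM in WT and 887 and 1136 in Il1a-/- Foxp3+ T cells, against 267, 289, 309 and 357 in Foxp3- CD4 T cells. The gates did not overlap, and the paired difference over 4 libraries was 1.74 ± 0.12 (log2 fold change, SE; edgeR adjusted p = 1.14e-12). Tnfrsf9, which marks recently stimulated T cells, stood at 513, 433, 887 and 970 in Foxp3+ T cells and at 88.3, 102, 264 and 136 in Foxp3- CD4 T cells. That difference, 2.25 ± 0.14, was the largest of the receptors (adjusted p = 5.39e-13).
Tnfrsf18, the GITR receptor, had 799, 715, 591 and 775 CPM in Foxp3+ T cells against 260 to 297 in Foxp3- CD4 T cells (1.33 ± 0.12, adjusted p = 7.26e-10). Tnfrsf1b, which binds TNF and lymphotoxin, had 369, 231, 374 and 293 against 101, 72.3, 193 and 140 (1.42 ± 0.15, adjusted p = 2.32e-08). These 4 calls held in all 10 alternative analyses. Icos was higher by only 0.40 ± 0.11 (adjusted p = 0.0108), with overlapping gates across hosts, and kept its call in 4 of 10 alternatives. The call was lost without WT replicate 1 or WT replicate 2 (adjusted p = 0.115 and 0.233), by DESeq2 (adjusted p = 0.104) and without pairing of the gates (adjusted p = 0.900). It was also lost in cells of at least 1000 UMIs and with at least 2 UMIs of Cd3 genes required (adjusted p = 0.0517 and 0.054). Cd28 differed by -0.06 ± 0.12 (adjusted p = 0.847).

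All 3 ligands were lower in Foxp3+ T cells. Cd40lg, the helper signal to antigen-presenting cells, was at 148, 88.3, 232 and 201 CPM in Foxp3- CD4 T cells and at 14.4, 7.20, 39.4 and 5.74 in Foxp3+ T cells. No Foxp3+ value reached the lowest Foxp3- CD4 value, and the log2 fold change was -3.64 ± 0.25 (adjusted p = 3.06e-12). Tnfsf8 stood at 282, 192, 70.9 and 144 against 25.9, 3.6, 19.7 and 45.9 (-3.82 ± 0.30, adjusted p = 2.99e-11). Tnfsf11, the RANK ligand, stood at 244, 139, 103 and 170 against 34.6, 36.0, 0 and 5.74 (-2.61 ± 0.22, adjusted p = 3.09e-10). The 0 in Il1a-/- replicate 1 came from 30 cells, and with 3 counts as the floor allows up to 59.1 CPM. In this comparison 8 of the 9 members tested passed, 5 higher and 3 lower, where 13.4% of 6715 genes did; the median was 0.40 over members and -0.01 over all genes.
Of the Foxp3- CD4 gate, 9.53% of cells lay in the cluster led by Foxp3, so that gate can hold Foxp3+ cells whose transcript was missed. Of the pathway genes, 6 of 16 adaptor and NF-kB genes were higher in Foxp3+ T cells and none lower, among them Traf1 (0.80 ± 0.14, adjusted p = 8.11e-05), a TRAF that these receptors bind, Relb (0.78 ± 0.23, adjusted p = 0.0210) and Nfkb2 (0.65 ± 0.22, adjusted p = 0.0446). Of 7 other TNF-superfamily genes tested, Cd27 and Tnfrsf13b were higher and Fasl and Tnfsf10 lower, and of 4 partner genes Ctla4 was higher and Lta and Tnf lower.

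CD8 T cells were low in the same ligands and in several receptors. The reference here is again the Foxp3- CD4 T cells of each library, so the 2 comparisons share those cells. Cd40lg was at 12.5 and 8.07 CPM in WT and 9.0 and 18.2 in Il1a-/- CD8 T cells, -3.70 ± 0.23 on the log2 scale (adjusted p = 2.44e-07). Tnfsf8 was -3.33 ± 0.22 (adjusted p = 3.38e-07) and Tnfsf11 -2.76 ± 0.20 (adjusted p = 9.88e-07). Tnfrsf4 was lower too, with 28.6, 79.2, 67.8 and 42.6 CPM (-2.49 ± 0.22, adjusted p = 5.31e-06). Tnfrsf18 (-1.03 ± 0.17, adjusted p = 0.00139), Icos (-1.13 ± 0.19, adjusted p = 0.00159) and Cd28 (-0.60 ± 0.16, adjusted p = 0.0304) followed. Tnfrsf9 and Tnfrsf1b did not pass, at 0.36 ± 0.19 (adjusted p = 0.317) and 0.07 ± 0.17 (adjusted p = 0.873). In all, 7 of 9 members tested were lower and none higher, where 8.60% of 7795 genes passed; without Il1a-/- replicate 1 or replicate 2 the call of Cd28 was lost (adjusted p = 0.0991 and 0.118). The median over members was -1.13 and that over all genes 0.04.

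**Figure D2:**
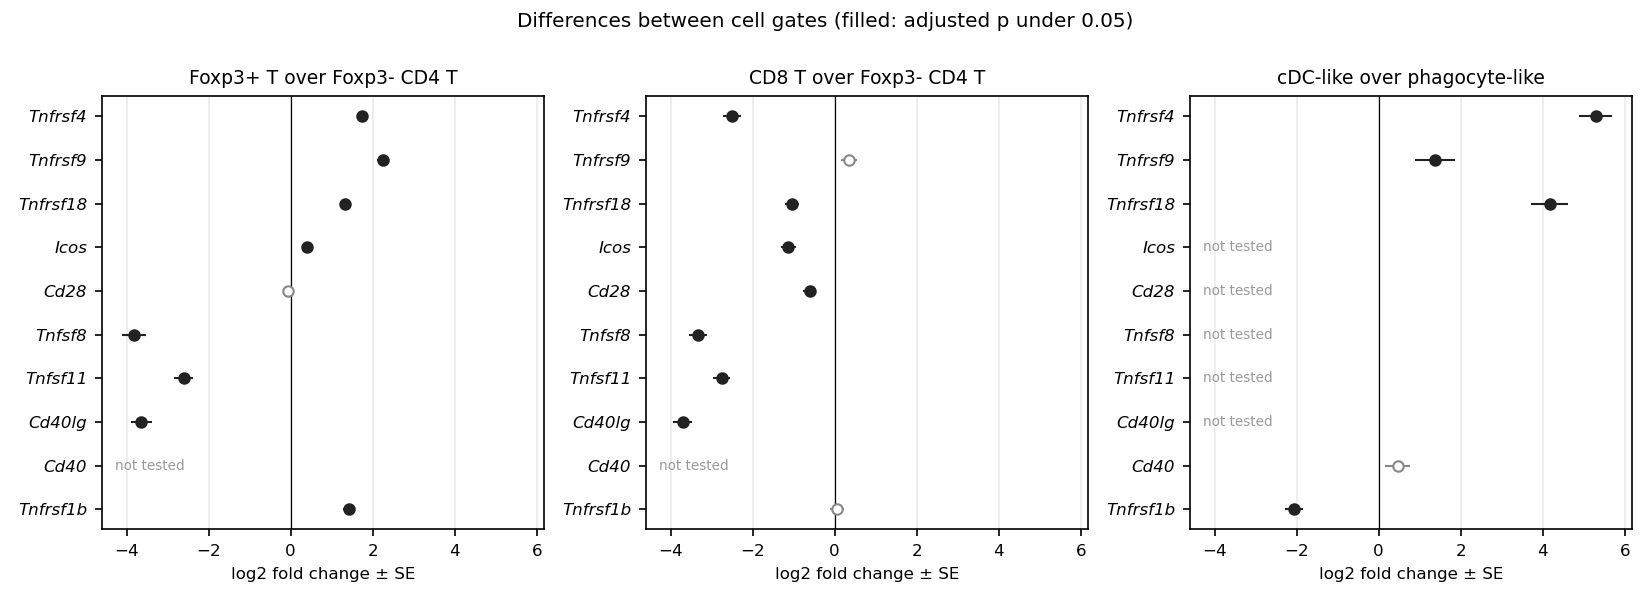
Log2 fold changes (x axis) with standard errors for the 10 genes (y axis) in 3 comparisons of gates over 4 libraries; filled points passed an adjusted p of 0.05. Tnfrsf4 is at 1.74 in Foxp3+ T cells and at -2.49 in CD8 T cells, both against Foxp3- CD4 T cells, and at 5.29 in conventional dendritic-like against phagocyte-like cells.

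Within Foxp3- CD4 T cells the 3 ligands were uneven, in a split chosen after the values were seen. Among cells with a UMI of the type 2 cytokines Il4, Il5 or Il13, Tnfsf8 stood at 433 and 238 CPM in WT and 138 and 119 in Il1a-/-, and in the other cells at 148, 145, 55.5 and 150. Tnfsf11 stood at 348, 174, 138 and 268 in the cytokine-positive cells and at 152, 103, 95.1 and 144 in the rest. Cd40lg gave 181, 110, 414 and 351 against 118, 65.4, 190 and 161. In every library Tnfsf11 and Cd40lg were higher in the cytokine-positive cells, and Tnfsf8 was higher in 3 of 4. Cells with a cytokine UMI numbered 95 and 108 in WT and 13 and 47 in Il1a-/-, and they were deeper in every library (median 3992, 6100.5, 1700 and 3017 UMIs, against 2385.5, 3409.5, 1094 and 2446); the part of depth was not tested.
Over 13 gates the pattern of log2 levels of Tnfsf8 correlated with that of Tnfsf11 at r = 0.942, and Tnfsf11 was followed by Ccl1 and Il2. The nearest patterns to Cd40lg were B630019A10Rik, Il13 and Gclc, to Tnfrsf4 were Il2ra, Izumo1r and Ccr4, and to Icos were Trbc2, Xlr4c and Lat. The gates share libraries and depth, so these are descriptions.

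Icos passed between hosts in more gates than any other member: it rose in all 5 lymphocyte gates of Il1a-/- tumours. In CD8 T cells it was at 125 and 110 CPM in WT and at 907 and 486 in Il1a-/-. Both Il1a-/- libraries lay far above both WT libraries, and the log2 fold change was 2.50 ± 0.31 (edgeR adjusted p = 0.00282). This call held in all 10 alternatives. The share of CD8 T cells with an Icos UMI was 30.2% and 28.4% in WT and 69.1% and 74.3% in Il1a-/-, at median depths of 3240, 4404.5, 1649.5 and 3624 UMIs. Thinned to 1000 UMIs a cell, which left out 1, 1, 102 and 14 cells, the shares were 11.6%, 10.0%, 54.7% and 39.3%. In fibroblast-like cells, which should lack Icos, 0.656%, 0%, 1.06% and 0.429% of cells had a UMI at medians of 6779, 11610, 3146.5 and 7551 UMIs, the 0 of 141 cells allowing a share of up to 2.13%.

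In Foxp3- CD4 T cells Icos rose from 425 and 352 to 1186 and 963 CPM (1.47 ± 0.21, adjusted p = 5.51e-04). Without WT replicate 1 the change was 1.58 with an adjusted p of 0.364. Foxp3+ T cells, the highest gate, went from 629 and 575 to 1281 and 1360 (1.08 ± 0.24, adjusted p = 0.0397). The direction held in all 10 alternatives but the call in 3. The call was lost by DESeq2 (adjusted p = 0.0534). By edgeR it was lost unfiltered, in cells of at least 1000 UMIs and without cells holding Mki67 or Top2a (adjusted p = 0.133, 0.082 and 0.117). It was also lost without WT replicate 1, WT replicate 2 or Il1a-/- replicate 2, where the changes were 1.06, 0.98 and 0.83. Gamma-delta T cells had 72.4 and 40.4 in WT and 295 and 281 in Il1a-/- (2.39 ± 0.26, adjusted p = 2.97e-06), a call lost without Il1a-/- replicate 2 (adjusted p = 0.128). NK cells had 25.3 and 21.2 against 88.5 and 94.2 (1.96 ± 0.22, adjusted p = 8.07e-10), and all 9 alternatives kept the call. In none of the 5 gates did the libraries of the 2 hosts overlap.
The rise was larger in CD8 T cells than in Foxp3- CD4 T cells by 0.96 ± 0.23 (interaction, adjusted p = 0.0249), where 2.02% of 8631 genes passed; the adjusted p was 0.207 in DESeq2 and 0.0784 without Il1a-/- replicate 1. Between Foxp3+ and Foxp3- CD4 T cells the difference was -0.39 ± 0.19 (adjusted p = 0.711), where 0.376% of 7707 genes passed and no member did.

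Which clusters filled a gate also changed with the host. Cluster 1, led by Ccl5, Cd8b1, Pdcd1 and Lag3, also has Icos among its leading genes. It held 5 and 22 of the WT CD8 T cells but 663 and 439 of those from Il1a-/- hosts. Cluster 4 held 47 and 127 against 9 and 4. Among the CD8 T cells of cluster 3, led by S1pr1, Ccr7 and Tcf7, Icos was at 217 and 247 CPM in WT and 293 and 377 in Il1a-/-, a far smaller gap than over the whole gate. Splitting instead by Pdcd1, chosen after the values were seen, left cells without a Pdcd1 UMI at 97.8 and 77.3 against 960 and 425, and cells with one at 255, 167, 864 and 543.
In Foxp3- CD4 T cells the gap stayed wide inside clusters. Icos stood at 404 and 436 against 1342 and 985 in cluster 3, and at 443 and 366 against 845 and 1075 in cluster 8, which is led by Il13 and Il4. In Foxp3+ T cells of cluster 9 it was 715 and 645 against 1345 and 1459. In gamma-delta T cells of cluster 6 it was 49.3 and 53.3 against 149 and 186. NK cells were uneven. They held Icos at 35.7 and 28.9 against 76.3 and 63.9 in cluster 0, and at 96.9 and 72.6 against 193 and 273 in cluster 6. In NK cells of cluster 13 the hosts overlapped, at 23.0 and 15.5 against 13.8 and 46.0, from 2, 4, 1 and 9 UMIs. Because the clusters were built from the same genes, these within-cluster values are descriptions.

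**Figure D3:**
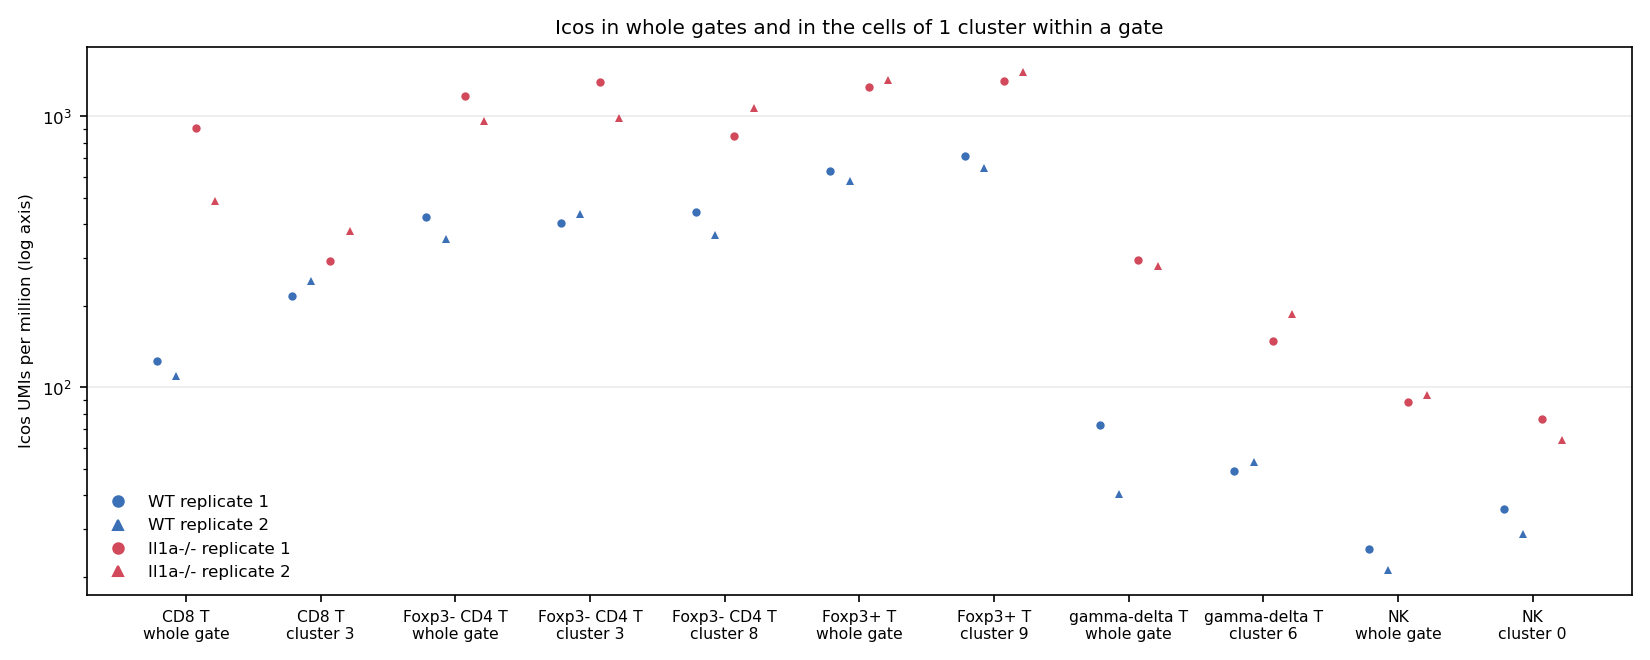
Icos CPM (y axis, log) in each whole gate and in the cells of 1 cluster within it (x axis), 1 point a library. CD8 T cells go from 125 and 110 in WT to 907 and 486 in Il1a-/- over the gate but from 217 and 247 to 293 and 377 in cluster 3, while Foxp3- CD4 T cells in cluster 3 go from 404 and 436 to 1342 and 985.

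Free RNA moved with this result: barcodes of at most 100 UMIs held Icos at 28.0 and 45.6 CPM in WT and 156 and 185 in Il1a-/-. Fibroblast-like cells of the same libraries held 1.54, 0, 3.43 and 0.57 CPM, where 0 allows up to 1.63. Summed phagocyte markers, all 11 detected in gamma-delta T cells and 10 of 11 in NK cells (Fcgr1 at 0), were at 232 and 209 against 311 and 598 CPM in the former and 141 and 155 against 246 and 301 in the latter; in CD8 T cells they were 349 and 395 against 157 and 827. Their part in the result was not tested. Cells with Mki67 or Top2a made up 13.5% and 15.5% of NK cells in WT and 3.52% and 5.25% in Il1a-/-; without such cells the Icos call in NK cells was kept.

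Cd28, the primary costimulatory receptor, rose in 3 gates. In Foxp3- CD4 T cells it went from 372 and 243 to 587 and 586 CPM (0.95 ± 0.23, adjusted p = 0.0257), and 5 of 10 alternatives kept the call. The call was lost by DESeq2 (adjusted p = 0.0516) and, by edgeR, without cells holding Mki67 or Top2a (adjusted p = 0.0678). It was also lost without WT replicate 1, WT replicate 2 or Il1a-/- replicate 2, where the changes were 1.255, 0.66 and 0.89. Gamma-delta T cells went from 86.7 and 64.0 to 192 and 185 (1.34 ± 0.24, adjusted p = 9.89e-04). NK cells went from 46.6 and 32.8 to 96.2 and 79.2 (1.11 ± 0.21, adjusted p = 1.14e-04). The hosts did not overlap in these 3 gates. Without WT replicate 2 the calls in gamma-delta T cells and NK cells were lost (adjusted p = 0.0721 and 0.133), the former also without Il1a-/- replicate 2 (adjusted p = 0.270). Foxp3+ T cells had 350 and 296 against 650 and 534 without passing (0.79 ± 0.28, adjusted p = 0.215). In CD8 T cells the hosts overlapped, at 310 and 178 against 335 and 281 (0.29 ± 0.28, adjusted p = 0.689).
Inside clusters the Cd28 gap was uneven. Foxp3- CD4 T cells of cluster 8 held 295 and 233 CPM in WT and 507 and 591 in Il1a-/-. Those of cluster 3, which has Cd28 among its leading genes, held 713, 732, 816 and 643, with the hosts overlapping. NK cells of cluster 0 overlapped too, at 77.1 and 35.8 against 69.7 and 55.7, as did those of cluster 13, at 11.5 and 27.2 against 55.3 and 15.3. NK cells of cluster 6 did not overlap, at 96.9 and 116 against 202 and 253. Neither did gamma-delta T cells of cluster 6, at 141 and 116 against 211 and 260. The NK gate as a whole lost cluster 7, with 303 and 294 cells in WT and 16 and 0 in Il1a-/-. Cd28 in free RNA was at 34.2 and 33.7 CPM in WT and 83.4 and 118 in Il1a-/-, and its part in these calls was not tested.

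Tnfrsf1b rose in the 2 innate-like gates. In NK cells it went from 84.7 and 83.0 to 152 and 171 CPM (0.94 ± 0.17, adjusted p = 6.01e-05), and in gamma-delta T cells from 101 and 82.4 to 263 and 158 (1.07 ± 0.25, adjusted p = 0.0101). Leaving out either WT library ended the NK call (adjusted p = 0.0683 and 0.109). Leaving out WT replicate 2, Il1a-/- replicate 1 or Il1a-/- replicate 2 ended the gamma-delta call (adjusted p = 0.183, 0.131 and 0.195). In CD8 T cells it was at 71.6 and 93.9 against 210 and 141 (0.99 ± 0.27, adjusted p = 0.0985), and in Foxp3- CD4 T cells at 101 and 72.3 against 193 and 140 (0.90 ± 0.26, adjusted p = 0.0677). Neither passed, though the hosts did not overlap. Foxp3+ T cells gave 369 and 231 against 374 and 293 (0.06 ± 0.32, adjusted p = 0.956). Within cluster 0, NK cells overlapped between hosts at 150 and 127 against 149 and 186. NK cells did not overlap in cluster 6, at 131 and 107 against 184 and 200, or in cluster 13, at 80.4 and 89.2 against 111 and 123. Within cluster 6 gamma-delta T cells overlapped at 176 and 132 against 285 and 175. Free RNA held Tnfrsf1b at 40.4 and 47.3 CPM in WT and 87.4 and 120 in Il1a-/-, and plasmacytoid dendritic markers (7 of 7 detected) summed to 597 and 816 against 1254 and 1527 in NK cells; their part was not tested.

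Tnfrsf4 and Tnfrsf18 passed in none of the T cell gates between hosts. The log2 fold change of Tnfrsf4 was -0.16 ± 0.38 in CD8 T cells, -0.16 ± 0.25 in Foxp3+ T cells and 0.29 ± 0.21 in Foxp3- CD4 T cells (adjusted p = 0.890, 0.834 and 0.504). That of Tnfrsf18 was 0.38 ± 0.31, -0.16 ± 0.27 and 0.11 ± 0.21 in the same order (adjusted p = 0.616, 0.840 and 0.822). Tnfrsf18, in gamma-delta T cells at 137, 134, 128 and 155 CPM and in NK cells at 132, 141, 169 and 134, did not pass there either (adjusted p = 0.829 and 0.724). Tnfrsf4 gave 6 and 7 UMIs in 725 and 703 WT NK cells and 0 in both Il1a-/- libraries, where 0 allows up to 5.77 and 3.44 CPM.
Tnfrsf9, in CD8 T cells at 59.1 and 170 CPM in WT and 430 and 155 in Il1a-/-, overlapped between hosts (1.21 ± 0.48, adjusted p = 0.256). It was 0.94 ± 0.28 in Foxp3- CD4 T cells and 0.93 ± 0.26 in Foxp3+ T cells without passing (adjusted p = 0.0774 and 0.0939), and the hosts did not overlap in either gate. With a library left out, the Tnfrsf9 change ran from 0.32 to 2.23 in CD8 T cells. It ran from 0.55 to 1.415 in Foxp3- CD4 T cells and from 0.65 to 1.03 in Foxp3+ T cells. Such fits leave a host without replicates, so they cannot measure its spread between tumours.

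No ligand passed between hosts by edgeR or by DESeq2. Tnfsf8 had 35.8 and 22.7 CPM in WT and 4.80 and 10.1 in Il1a-/- CD8 T cells (-1.85 ± 0.43, adjusted p = 0.0509). In Foxp3- CD4 T cells, its main source, it was -0.95 ± 0.28 (adjusted p = 0.0737), with both Il1a-/- libraries below both WT libraries. With a library left out, the Tnfsf8 change ran from -2.565 to -1.48 in CD8 T cells and from -1.78 to -0.65 in Foxp3- CD4 T cells. In cluster 8 of that gate Tnfsf8 stood at 419 and 294 against 169 and 202. Tnfsf8 is itself among the leading genes of cluster 8, so these values are descriptions. Cd40lg in the same gate was 0.88 ± 0.26 (adjusted p = 0.0693), with both Il1a-/- libraries above. Tnfsf11 overlapped between hosts there (-0.34 ± 0.29, adjusted p = 0.570) and gave 24 and 40 UMIs in WT against 0 and 1 in Il1a-/- Foxp3+ T cells, gates of unequal size (-2.97 ± 1.02, adjusted p = 0.191).

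Set against all genes, the members' counts were as follows. In CD8 T cells 1 of 9 tested members rose, where 2.43% of genes passed in either direction, and in Foxp3- CD4 T cells 2 of 9, where 3.63% did. In Foxp3+ T cells it was 1 of 8 (0.816% of genes), in gamma-delta T cells 3 of 6 (5.56%) and in NK cells 3 of 5 (18.5%). No member fell, and DESeq2 also called none lower. The medians over tested members were 0.38, 0.88, 0.43, 0.60 and 0.94 on the log2 scale in that order, and those over all genes lay between -0.02 and 0.00. The libraries are separate tumours by their labels, and the p-values measure the spread between those 2 against 2.

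**Figure D4:**
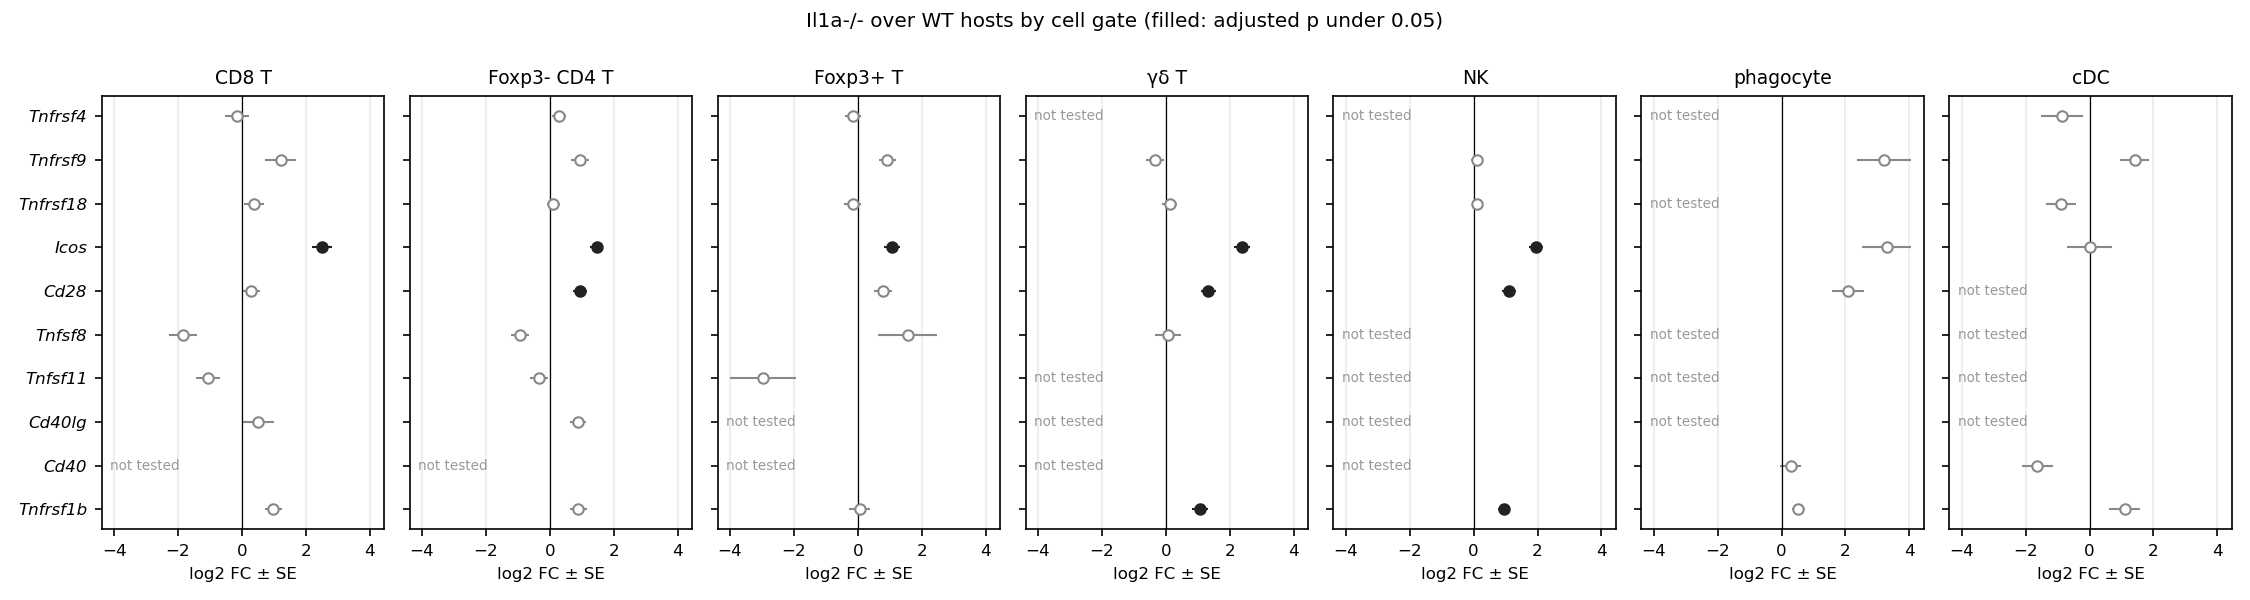
Log2 fold changes of Il1a-/- over WT hosts (x axis) with standard errors for the 10 genes (y axis), 1 panel a gate, 2 libraries a host; filled points passed an adjusted p of 0.05. Icos is filled in the 5 lymphocyte gates, from 1.08 in Foxp3+ T cells to 2.50 in CD8 T cells, and no point is filled in the phagocyte-like or conventional dendritic-like (cDC) gate.

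Other genes of these pathways also differed between hosts. Ctla4, the inhibitory receptor that competes with Cd28 for B7 ligands, rose in CD8 T cells (2.62 ± 0.26, adjusted p = 0.00140), Foxp3- CD4 T cells (1.40 ± 0.21, adjusted p = 9.20e-04), gamma-delta T cells (2.13 ± 0.34, adjusted p = 2.82e-04) and NK cells (3.20 ± 0.30, adjusted p = 9.42e-12). In Foxp3+ T cells it was 0.62 ± 0.26 (adjusted p = 0.303). Its rise exceeded that of Foxp3- CD4 T cells by 1.20 ± 0.23 in CD8 T cells (adjusted p = 0.00538) and was smaller than it in Foxp3+ T cells, by an interaction of -0.73 ± 0.18 (adjusted p = 0.0220). Ctla4 and Icos lie 62.1 kb apart.
Tnfaip3, a ubiquitin-editing brake on NF-kB, rose in the same 4 gates, from 1.21 ± 0.24 in CD8 T cells (adjusted p = 0.0274) to 1.49 ± 0.27 in Foxp3- CD4 T cells (adjusted p = 0.00407). Ltb, a lymphotoxin subunit, fell in Foxp3- CD4 T cells (-0.91 ± 0.20, adjusted p = 0.0161), Foxp3+ T cells (-1.14 ± 0.26, adjusted p = 0.0410), gamma-delta T cells (-1.21 ± 0.20, adjusted p = 3.03e-04) and NK cells (-1.67 ± 0.17, adjusted p = 6.85e-11). Cd27, a TNF receptor relative bound by Cd70, rose in Foxp3- CD4 T cells (1.37 ± 0.26, adjusted p = 0.00490), gamma-delta T cells and NK cells.
By list, 1 of 6 tested partner ligands and receptors rose in CD8 T cells and 1 of 4 in Foxp3- CD4 T cells, both Ctla4; in gamma-delta T cells 1 of 3 rose and 1 fell (Lta), as did 1 and 1 of 5 in NK cells. Of the adaptor and NF-kB genes, 1 of 16 rose in CD8 and in Foxp3- CD4 T cells, 3 of 16 in gamma-delta T cells (Tnfaip3, Pik3r1, Birc2) and 2 of 16 in NK cells, where Traf2 fell. The adaptor list's medians were 0.10, 0.42, 0.39 and 0.24 in CD8, Foxp3- CD4, gamma-delta and NK cells, beside the all-gene medians above. The other TNF-superfamily genes went both ways: 2 of 11 tested rose and 1 fell in Foxp3- CD4 T cells, 2 and 2 of 9 in gamma-delta T cells and 3 and 4 of 12 in NK cells. None of 11 passed in CD8 T cells, and 1 of 5 fell in Foxp3+ T cells. Tnfsf10, the death ligand TRAIL, fell in NK cells (-2.05 ± 0.27, adjusted p = 1.15e-07) and gamma-delta T cells (-1.49 ± 0.29, adjusted p = 0.00206). Fasl, the ligand of Fas, rose in Foxp3- CD4 T cells (1.38 ± 0.29, adjusted p = 0.0122) and NK cells (0.64 ± 0.17, adjusted p = 0.00411).
Of the T cell state genes, Tcf7, Ccr7 and Lef1, which mark naive and memory T cells, fell in CD8 T cells and none rose; Tcf7 was -2.005 ± 0.38 (adjusted p = 0.0233).

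Cd40, which licenses antigen-presenting cells when Cd40lg binds it, lay mainly in the myeloid gates. Phagocyte-like cells held it at 45.7 and 72.0 CPM in WT and 98.6 and 55.2 in Il1a-/-, and conventional dendritic-like cells at 108 and 123 against 77.6 and 21.0. The hosts overlapped in phagocyte-like cells (0.28 ± 0.33, adjusted p = 0.727) and not in conventional dendritic-like cells, where the change did not pass (-1.63 ± 0.48, adjusted p = 0.312). The Il1a-/- values rest on 7 UMIs in each library, from 32 and 42 cells. With a library left out, the change ran from -2.35 to -0.59. Inside the dendritic cluster, cells with at least 2 UMIs of Ccr7 and Fscn1 together, markers of maturation, were taken apart. They held Cd40 at 384 and 249 CPM in WT, from 15 and 17 cells, against 115 from 7 cells in Il1a-/- replicate 2. Il1a-/- replicate 1 had 1 such cell, with 0 Cd40 UMIs. The nearest patterns to Cd40 over gates were those of Cd83, Cd86 and Rasgef1b.

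Conventional dendritic-like cells also held Tnfrsf4 at 29.2 and 142 CPM in WT and 33.3 and 51.0 in Il1a-/-, and phagocyte-like cells at 0, 2.94, 5.80 and 1.73. Paired within libraries, Tnfrsf4 was higher in the dendritic gate by 5.29 ± 0.40 (adjusted p = 1.30e-06), Tnfrsf18 by 4.17 ± 0.46 (adjusted p = 2.86e-05) and Tnfrsf9 by 1.38 ± 0.48 (adjusted p = 0.0459). Tnfrsf1b went the other way, at 16.7, 22.2, 55.4 and 36.0 against 95.0, 103, 136 and 142 in phagocyte-like cells (-2.07 ± 0.22, adjusted p = 2.42e-05). The Tnfrsf9 call was lost without WT replicate 2 or Il1a-/- replicate 1 (adjusted p = 0.269 and 0.0881). Of 5 members tested 4 passed, where 31.4% of 5956 genes did. Cd40 was the member that did not pass, at 0.10 to 0.81 with a library left out. The 12 T and NK markers summed to 158, 221, 410 and 651 CPM in the dendritic gate (11 detected, Ncr1 at 0) and to 22.1, 47.6, 194 and 72.5 in the phagocyte gate; their part in these differences was not tested.

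**Figure D5:**
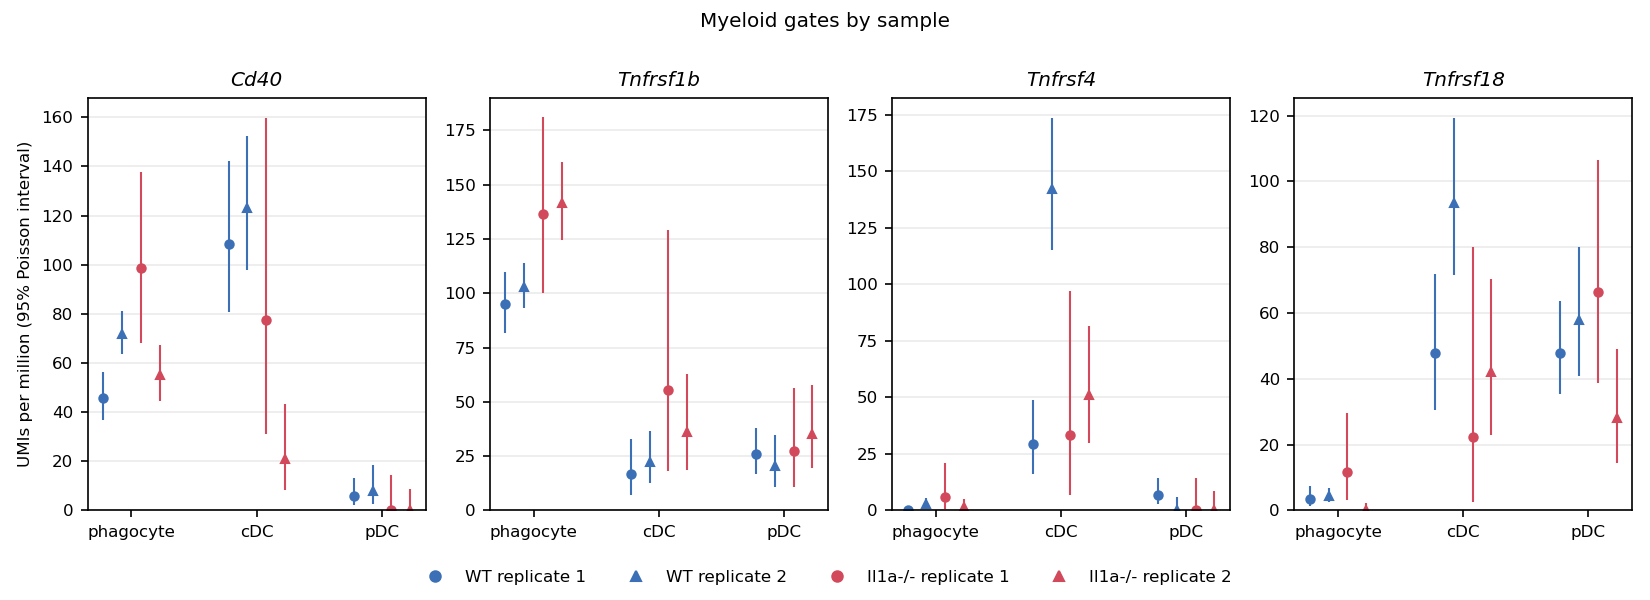
CPM (y axis) of Cd40, Tnfrsf1b, Tnfrsf4 and Tnfrsf18 in phagocyte-like, conventional (cDC) and plasmacytoid (pDC) dendritic-like cells (x axis), 1 point a library with its 95% Poisson interval, which covers counting error only. Tnfrsf1b lies at 95.0 to 142 in phagocyte-like and 16.7 to 55.4 in conventional dendritic-like cells.

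Between hosts no member passed in phagocyte-like cells, where 0.100% of 8971 genes did, nor in conventional dendritic-like cells, where 0.105% of 4762 did. By DESeq2 none passed either, and at an unadjusted edgeR p under 0.05 there were 4 of 5 and 3 of 6 members, beside 1256 of the 8971 and 468 of the 4762 genes. Icos and Cd28 in phagocyte-like cells gave 7 and 14 UMIs over both WT libraries and 24 and 21 over both Il1a-/- libraries, while the T and NK markers there moved the same way, as above. Tnfrsf9 gave 0 and 34 UMIs in WT and 5 and 116 in Il1a-/- (3.21 ± 0.84, adjusted p = 0.171), most from Il1a-/- replicate 2. With a library left out, that change ran from 1.355 to 9.08. Of the partner ligands on these cells, Cd86 was at 75.4 ± 3.71 (SD, n = 2) CPM in WT and 71.6 ± 1.21 in Il1a-/- phagocyte-like cells, and no partner gene passed in either gate.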

How the data were processed

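Tumour cells were read by 10x 3' v3.1 sequencing, and the deposited values are raw UMI counts per barcode from Cell Ranger 3.1.0, per the submitters' processing notes and the labels' protocols, on a combined human and mouse (mm10) reference. Each of the 4 matrices lists 6794880 barcodes, so cells had to be called: barcodes needed 500 UMIs, 250 genes, at most 20% mitochondrial UMIs and, below 5000 UMIs, a count profile unlike free RNA, and scored doublets were removed. Cells were clustered (scanpy 1.11.5, 2000 variable genes, 30 components, resolution 1) and clusters named from marker lists; T and NK-like cells were then gated per cell.

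UMIs were summed per gate and library and tested with edgeR 4.0.16 (quasi-likelihood, TMM, filterByExpr), adjusted over all tested genes by Benjamini-Hochberg, threshold 0.05; gate comparisons kept the library as a block. Intervals and the 3-count floor cover counting error only. DESeq2 1.42.0, no filter, deeper cells, no cycling cells, a stricter CD3 gate and left-out libraries were the alternatives. The genes named by rule are the 10 members and, of each pathway list, those past the threshold, at most 5 a list and gate by smallest p. Members and lists were chosen with earlier results of these data known. Scripts were tested on simulated data.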

Additional observations from a re-analysis of the deposited data

Results flagged for a closer look

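The Icos difference between hosts was larger in CD8 T cells than in Foxp3- CD4 T cells by 0.96 on the log2 scale, and this difference was itself tested (edgeR adjusted p = 0.0249, over alternatives 1.22e-05 to 0.207). For Tnfrsf9 and Tnfrsf18, both Il1a-/- libraries lay above both WT libraries in some gates and below both in another. These differences between gates were not tested. Tnfrsf9 was higher in Il1a-/- hosts by 0.94 in Foxp3- CD4 T cells, by 0.93 in Foxp3+ T cells, by 3.21 in phagocyte-like cells and by 1.41 in conventional dendritic-like cells, while it was -0.33 in gamma-delta T cells. None of these 5 Tnfrsf9 differences passed on its own. Tnfrsf18 was at 0.11 in Foxp3- CD4 T cells and at -0.90 in conventional dendritic-like cells, neither of which passed.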

How the results depend on the processing

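Of the members' called differences, 246 of the alternative values kept direction and call, 37 lost the call and none reversed; of those not called, 333 stayed so, 37 passed and 33 reversed. The cause was not tested for any of these changes. In host comparisons, leaving out a library leaves that host without replicates, so its spread between tumours cannot be measured.

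Without the filter on low counts, which tests more genes, the numbers called between hosts were 582 in CD8, 455 in Foxp3- CD4 and 70 in Foxp3+ T cells, 564 in phagocyte-like and 71 in conventional dendritic-like cells, 1080 for CD8 against Foxp3- CD4 T cells and 305 for the CD8 interaction. DESeq2 called 96 in Foxp3- CD4, 7 in Foxp3+ and 137 in gamma-delta T cells, 502 in NK and 98 in phagocyte-like cells, 454 for Foxp3+ against Foxp3- CD4 T cells, and 1 and 45 for the Foxp3+ and CD8 interactions. Without cells holding Mki67 or Top2a the counts were 800 in NK cells, 4 in phagocyte-like cells and 16 for the Foxp3+ interaction. With at least 1000 UMIs a cell the CD8 share differed by 30.7 percentage points.

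The labels tie no replicate number to a collection day, and deviations of same-numbered libraries correlated at 0.00943 to 0.0767. With a replicate block the counts were 128 in Foxp3+ T cells, 159 in phagocyte-like and 80 in conventional dendritic-like cells. The gate comparisons had the library as block instead, which pairs both gates of a library. Without that pairing 233 genes passed for Foxp3+ and 302 for CD8 against Foxp3- CD4 T cells. Icos (edgeR adjusted p = 0.900 and 0.603) and Cd28 (0.321 in CD8) then lost their calls. So did Tnfrsf9 in conventional dendritic-like against phagocyte-like cells (0.548).

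Leaving out 1 library gave 63 to 635 genes in CD8 T cells, 0 to 361 in Foxp3- CD4, 4 to 169 in Foxp3+ and 4 to 363 in gamma-delta T cells, 28 to 1037 in NK, 0 to 300 in phagocyte-like and 0 to 111 in conventional dendritic-like cells. The 3 counts of 0 (edgeR) came without WT replicate 1 in Foxp3- CD4 T and in phagocyte-like cells and without Il1a-/- replicate 2 in conventional dendritic-like cells, with 1061, 566 and 355 genes at an unadjusted p under 0.05. The gate comparisons gave 449 to 1005, 402 to 586 and 1092 to 2039, and the interactions 8 to 56 and 106 to 396.

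Reversed values all belong to differences that were not called. In CD8 T cells left-out libraries gave Tnfrsf4 -0.61 to 0.86, Tnfrsf18 -0.045 to 0.77, Cd28 -0.074 to 0.725 and Cd40lg -0.15 to 0.90. In Foxp3- CD4 T cells Tnfsf11 gave -0.93 to 0.10. In Foxp3+ T cells Tnfrsf4 gave -0.58 to 0.028, Tnfrsf18 -0.62 to 0.024 and Tnfrsf1b -0.27 to 0.35. In gamma-delta T cells Tnfrsf18 gave -0.17 to 0.22 and Tnfsf8 -1.75 to 0.32, and in NK cells Tnfrsf9 gave -0.10 to 0.29 and Tnfrsf18 -0.035 to 0.27. In phagocyte-like cells Cd40 gave -0.0035 to 0.70; in conventional dendritic-like cells Tnfrsf4 gave -1.51 to 0.67 and Icos -0.62 to 1.575. Tnfrsf1b in CD8 against Foxp3- CD4 T cells gave -0.070 to 0.20.
By other settings, without cycling cells Tnfrsf4 was 0.62 in CD8 T cells, Tnfsf8 -0.0089 in gamma-delta T cells, Tnfrsf9 -0.16 and Tnfrsf18 -0.016 in NK cells and Tnfrsf18 0.086 in conventional dendritic-like cells. Unfiltered, Tnfrsf1b was -0.075 in Foxp3+ T cells and Icos -0.042 in conventional dendritic-like cells, where Icos was -0.033 in deeper cells and -0.070 with the replicate block. Tnfsf8 in gamma-delta T cells was -0.12 by DESeq2 and -0.0064 with the replicate block.

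In Il1a-/- replicate 1 the Foxp3+ T and conventional dendritic-like gates held 30 and 32 cells, which limits their precision.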

Other observations

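The partner ligands of these receptors differed in level on antigen-presenting cells; Tnfsf4 and Tnfsf9 were chosen for mention after their values were seen. Tnfsf4, which binds the Tnfrsf4 receptor, gave 0 UMIs in 1096 WT and 565 Il1a-/- phagocyte-like cells and 1 UMI in 167 WT conventional dendritic-like cells. Tnfsf9, the ligand of the Tnfrsf9 receptor, was at 77.3 ± 52.8 CPM (SD, n = 2) in WT and 10.0 ± 1.47 in Il1a-/- conventional dendritic-like cells, the latter from 4 UMIs. That difference was -2.90 ± 0.80 on the log2 scale and did not pass (edgeR adjusted p = 0.279). Cd86, a B7 ligand of the Cd28 receptor, was higher in conventional dendritic-like than in phagocyte-like cells by 0.55 ± 0.16 (edgeR adjusted p = 0.0210). So was Traf1, an adaptor of these receptors, by 2.82 ± 0.31 (edgeR adjusted p = 3.02e-05).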
